A study of Mus musculus with 4 samples.

Results

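The nucleotide synthesis enzymes are 9 genes, Rrm1, Rrm2, Tyms, Dut, Dctd, Tk1, Dck, Cad and Umps, that make or rescue the building blocks of DNA and the pyrimidines of RNA. They were chosen by name, as every non-control probe carrying one of these gene names, which gave 11 probes of 39429 on the array and 9 genes of 31829 named entries. Dctd and Umps had 2 probes each and the other genes 1. Where a gene had 2 probes, the brighter one is its value and the other is reported beside it.

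The arrays held RNA of tumour-derived mammary cancer cells from MMTV-Neu mice, in which the promoter of mouse mammary tumour virus drives the Neu (Erbb2) oncogene in mammary epithelium. Both groups carried this transgene, and the question was how loss of Pak1, a p21-activated kinase that signals downstream of Rac and Cdc42, changes gene expression in such cells. 2 samples were labelled Pak1-/- and 2 Pak1+/+, and the paper describes the cells as lines derived from mouse tumours. All were grown in low calcium medium with horse serum, starved of serum for 3 h and stimulated with epidermal growth factor (EGF) for 15 min. Lines differ between the genotypes, so line of origin and genotype cannot be told apart. The design text speaks of 2 tumours per group but ties no array to a tumour, so p-values measure the spread between these samples, which may be partly technical. Ages were not given in the sources used here, and human samples of the study were not analysed here.

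Ribonucleotide reductase turns ribonucleoside diphosphates into their deoxy forms and is the step at which cells commit ribonucleotides to DNA. Dctd, Dut and Tyms then lead deoxycytidine and deoxyuridine nucleotides to thymidylate, while Tk1 and Dck rescue nucleosides from outside or from breakdown. Cad and Umps build the pyrimidine ring from simple precursors. Transcripts of Rrm2, Tk1 and Tyms are textbook examples of messages that accumulate as cells enter S phase.

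All 9 genes were lower in the arrays labelled Pak1-/- than in those labelled Pak1+/+. The lowest was Rrm2, the small subunit of ribonucleotide reductase, at 3.57-fold below Pak1+/+. Tk1, Dctd, Tyms and Dut were 2.08-fold to 2.31-fold lower, and Dck and Rrm1 1.74-fold and 1.57-fold lower. Umps and Cad, which act in the de novo pathway, were 1.28-fold and 1.23-fold lower, though the dimmer Umps probe was 1.73-fold lower. Over the whole array 52% of the probes tested passed the adjusted threshold of 0.05 of limma in either direction, 14144 of 27215. By gene, 28.3% of 21957 were called lower and 22.8% higher, against 9 and 0 of the 9 enzymes. For 5 enzymes the fall reached 2-fold, as it did for 5.62% of all genes tested. Both Pak1-/- arrays lay below both Pak1+/+ arrays for every one of the 9 enzymes and for 43.4% of all genes. The median log2 difference of the 9 enzymes, Pak1-/- minus Pak1+/+, was -1.06, and that of all genes was -0.05.

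The starts of 4 of these genes are shown because they span the range of the differences, with both subunits of ribonucleotide reductase, the salvage enzyme Tk1 and the least changed gene Cad. Each is the 250 bases before the transcription start, 5' to 3' on the strand of the gene, from RefSeq on GRCm38.p6. Capitals mark GGGCGG, the core of an SP1-type box, and CCAAT, on either strand.
Rrm1, chr7:102441445-102441694, plus strand: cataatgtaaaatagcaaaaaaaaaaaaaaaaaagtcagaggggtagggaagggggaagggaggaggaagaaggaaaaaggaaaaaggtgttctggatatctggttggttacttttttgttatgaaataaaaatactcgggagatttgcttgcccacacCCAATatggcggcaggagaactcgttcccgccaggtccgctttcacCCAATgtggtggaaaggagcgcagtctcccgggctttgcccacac
Rrm2, chr12:24708004-24708253, plus strand: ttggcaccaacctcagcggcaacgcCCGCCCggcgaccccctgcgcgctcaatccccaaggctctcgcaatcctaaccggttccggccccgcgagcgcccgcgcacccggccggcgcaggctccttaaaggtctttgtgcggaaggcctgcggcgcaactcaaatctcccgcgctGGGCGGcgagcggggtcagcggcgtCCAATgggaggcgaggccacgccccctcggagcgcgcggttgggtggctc
Tk1, chr11:117826015-117826264, minus strand: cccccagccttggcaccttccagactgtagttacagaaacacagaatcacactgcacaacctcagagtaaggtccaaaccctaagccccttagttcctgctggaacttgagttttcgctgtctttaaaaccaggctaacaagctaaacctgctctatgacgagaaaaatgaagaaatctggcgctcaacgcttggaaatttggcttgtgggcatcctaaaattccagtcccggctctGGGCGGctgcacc
Cad, chr5:31054530-31054779, plus strand: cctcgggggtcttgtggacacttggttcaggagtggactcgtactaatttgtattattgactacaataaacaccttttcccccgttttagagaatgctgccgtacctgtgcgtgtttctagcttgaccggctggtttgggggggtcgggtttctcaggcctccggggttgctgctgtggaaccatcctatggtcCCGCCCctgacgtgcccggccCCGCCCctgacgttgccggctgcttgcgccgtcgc

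Of the 9 genes, 8 held GGGCGG on either strand within 250 bases before to 50 after a RefSeq start, and Rrm1 was the one without it. The same letters stood in 35.7% of 32851 windows of 300 bases over all genes. CCAAT stood in the windows of Rrm1, Rrm2 and Dctd, and in 37.4% of all windows. TTTNNCGC, an E2F-type motif searched on both strands, was in the window of Tyms alone among the 9, starting at position 41 counted from the start site and thus outside the stretch before the start, and in 5.17% of all windows. Its stricter form TTTNCCGC, every match of which is also a match of TTTNNCGC, was in none of the 9 and in 2.22% of all. TTTGAA, a CHR-type motif, was in the windows of Dck and Umps and in 17.9% of all, and its variant TTCGAA in none of the 9 and in 1.56%. Dctd had 3 RefSeq starts and the others 1 each, and the share of G and C in the windows ran from 47% for Rrm1 to 75% for Dut. These are matches of letters and not measured binding sites.

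Rrm1 and Rrm2 encode the large and the small subunit of ribonucleotide reductase. The Rrm2 probe (mm9, chr12:25398824-25398883) read 14.99 and 15.02 on the log2 intensity scale in the Pak1-/- arrays and 16.95 and 16.73 in the Pak1+/+ arrays. The groups lay far apart, with SDs of 0.02 and 0.16 within them, and the difference was -1.84 ± 0.10 (SE, 2 arrays per group), with an adjusted p of 0.00039. Only 1.58% of the genes tested had a lower difference. The Rrm1 probe (chr7:109617223-109617283) read 14.76 and 14.91 in the Pak1-/- arrays against 15.50 and 15.48. It too was lower in both Pak1-/- arrays, by a log2 difference of -0.65 ± 0.08 (SE; 95% interval -0.87 to -0.43; adjusted p = 0.0037).

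**Figure D1:**
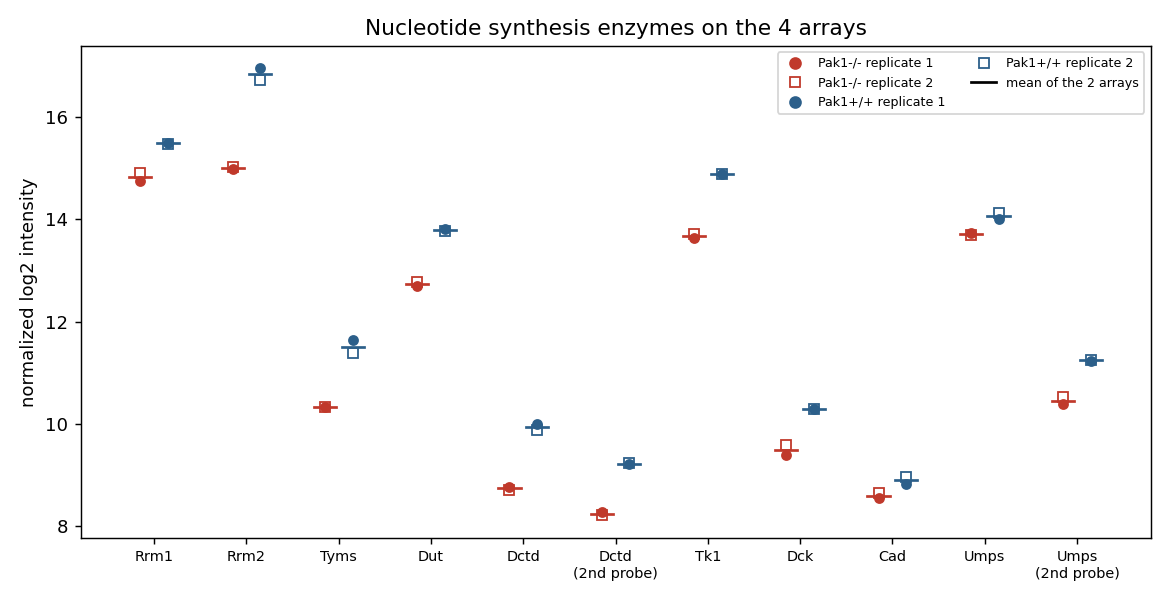
Normalized log2 intensity (vertical axis) of each of the 11 probes on each of the 4 arrays, Pak1-/- in red and Pak1+/+ in blue, with circles for replicate 1, squares for replicate 2 and a short line at each group mean. For every probe both red marks lie below both blue marks, and the gap is widest for Rrm2; levels of different probes are not comparable.

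The subunits were then set against each other on the same array, with 1 probe for each. The log2 difference between the Rrm2 and the Rrm1 probe on the same array was 0.23 and 0.10 in the Pak1-/- arrays and 1.45 and 1.25 in the Pak1+/+ arrays. It was 1.18 lower in Pak1-/- (exact permutation p = 0.333, two-sided, the smallest p that 2 arrays against 2 can give). Rrm2b encodes the alternative small subunit, which serves DNA repair and resting cells. Its probe read 7.52 and 7.47 against 7.70 and 7.92, a log2 difference of -0.31 with a 95% interval of -0.57 to -0.05 that did not pass the adjusted threshold (adjusted p = 0.052). It passed under 3 of 16 alternatives, and its second probe was too dim to be tested. The Rrm2 value relative to Rrm2b fell by 1.52 between the groups, from 9.25 and 8.81 in the Pak1+/+ arrays to 7.47 and 7.54 in the Pak1-/- arrays (exact permutation p = 0.333).

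Tyms, Dut and Dctd feed or perform the making of thymidylate. Tyms encodes thymidylate synthase, the methylating enzyme, and its probe (chr5:30385578-30385637) read 10.33 and 10.34 in the Pak1-/- arrays and 11.63 and 11.38 in the Pak1+/+ arrays. The difference of -1.17 ± 0.11 (SE; adjusted p = 0.0014) was several times the spread within either group. A probe for a thymidylate synthase pseudogene, Tyms-ps, looked at after the values were seen, was lower as well, at 12.70 and 12.95 against 13.69 and 13.68 (difference -0.86, adjusted p = 0.0034). Whether transcripts of the gene and of its copy bind both probes was not tested.

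Dut encodes the dUTPase, which keeps uracil out of DNA and supplies dUMP. Its probe (chr2:125083359-125083418) read 12.70 and 12.78 against 13.82 and 13.78, a difference of -1.06 ± 0.07 (SE; adjusted p = 0.00069). Dctd encodes dCMP deaminase, another source of dUMP. Its brighter probe (chr8:49226475-49226534) read 8.77 and 8.72 against 10.01 and 9.88, and the difference was -1.20 ± 0.08 (SE; adjusted p = 0.00066). Its dimmer probe read 8.28 and 8.21 against 9.22 and 9.23, with a difference of -0.98 and a 95% interval of -1.16 to -0.79 that overlaps that of the brighter probe, -1.41 to -0.99. The 60 bases of the dimmer probe are placed over 25214 bases (chr8:49197399-49222612), so that it joins separate stretches of the genome, whereas the brighter probe is one unbroken stretch.

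Among the salvage kinases, Tk1 had the larger difference. It encodes the cytosolic thymidine kinase, and its probe (chr11:117676845-117676904) read 13.64 and 13.72 in the Pak1-/- arrays and 14.88 and 14.89 in the Pak1+/+ arrays. The difference was -1.21 ± 0.07 (SE; 95% interval -1.39 to -1.02; adjusted p = 0.00048). A pair of further probes described in the files as cytosolic thymidine kinase but named by transcript, and found after the values were seen, differed by -1.22 (adjusted p = 0.00080) and, for the dimmer one, -0.48 (adjusted p = 0.020). All Tk1 probes were lower, and the size of the difference varied between them.

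Dck, the deoxycytidine kinase, also phosphorylates purine deoxynucleosides. It read 9.40 and 9.60 in the Pak1-/- arrays and 10.30 in each of the Pak1+/+ arrays (chr5:89211802-89211861), a difference of -0.80 ± 0.09 (SE; adjusted p = 0.0028). Relative to Dck on the same array, Tk1 was lower by 0.41 on the log2 scale in Pak1-/-, with values of 4.24 and 4.12 against 4.58 and 4.59 (exact permutation p = 0.333).

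Tk2 and Dguok are the mitochondrial partners of these kinases, and whether they differed less than the cytosolic ones was not tested over all probes. Tk2, the mitochondrial thymidine kinase, read 11.58 and 11.62 against 11.84 and 11.80, a difference of -0.22 with a 95% interval of -0.40 to -0.04 that did not pass the adjusted threshold (adjusted p = 0.052). The Tk1 value relative to Tk2 was 2.06 and 2.10 in the Pak1-/- arrays and 3.04 and 3.09 in the Pak1+/+ arrays, a change of -0.99 (exact permutation p = 0.333). Dguok, the mitochondrial deoxyguanosine kinase, differed by -0.24 (adjusted p = 0.043), a call lost under 13 of 16 alternatives.

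**Figure D2:**
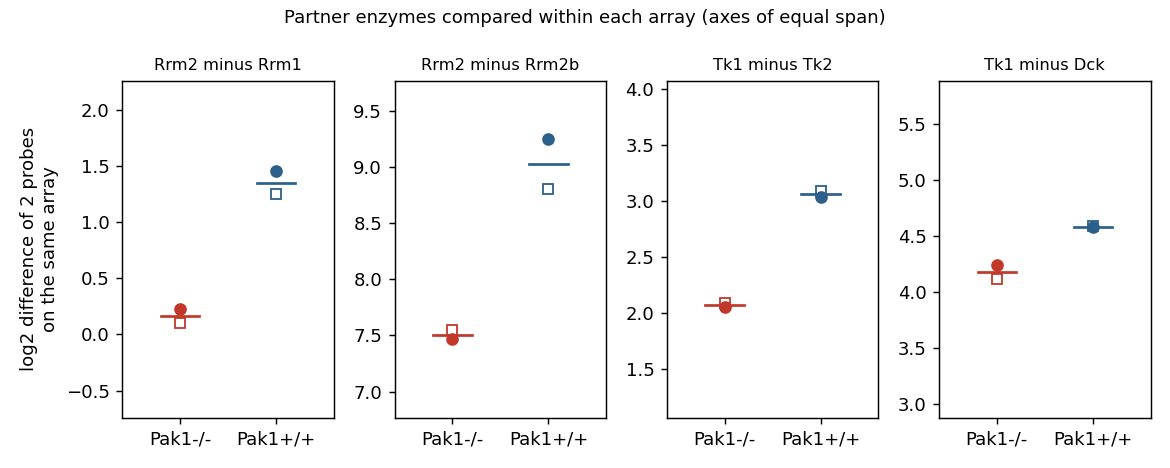
Log2 difference between the probes of 2 partner enzymes on the same array (vertical axes, all of the same span), Pak1-/- in red and Pak1+/+ in blue, with circles and squares for replicates 1 and 2 and lines at the group means. In all 4 pairs the Pak1-/- arrays lie below the Pak1+/+ arrays, by 1.52 for Rrm2 minus Rrm2b and by 0.41 for Tk1 minus Dck.

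Cad and Umps act in the de novo pathway, Cad in its first steps as one large protein and Umps in the last steps to UMP. Cad (chr5:31369954-31370013) read 8.56 and 8.64 in the Pak1-/- arrays and 8.84 and 8.96 in the Pak1+/+ arrays. The groups did not overlap but lay close, with a difference of -0.30 ± 0.08 (SE; 95% interval -0.52 to -0.08; adjusted p = 0.037). This call did not hold under 11 of 16 alternatives, among them both scalings to the 75th percentile, cyclic loess and leaving out any 1 array. Over all 16 the differences lay between -0.36 and -0.23 and the adjusted p-values between 0.029 and 0.17.

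The brighter Umps probe (chr16:33956683-33956742) read 13.73 and 13.69 in the Pak1-/- arrays and 14.00 and 14.12 in the Pak1+/+ arrays, a difference of -0.36 ± 0.08 (SE; 95% interval -0.56 to -0.15; adjusted p = 0.019). Its call was lost under 6 of 16 alternatives, including cyclic loess (adjusted p = 0.052) and leaving out either Pak1-/- array or the second Pak1+/+ array (adjusted p = 0.059, 0.071 and 0.10). The dimmer Umps probe (chr16:33955215-33955274) read 10.38 and 10.52 against 11.24 and 11.25, a larger difference of -0.79 with a 95% interval of -1.0 to -0.58 (adjusted p = 0.0019). The intervals of both probes do not overlap, and on the same array the brighter probe stood 3.35 and 3.16 above the dimmer one in Pak1-/- and 2.76 and 2.88 in Pak1+/+ (exact permutation p = 0.333, a pair looked at after the values were seen). The size of the Umps difference thus depends on the probe, and with the mean of both it was -0.57.

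The last 30 of the 60 bases of the Umps and Dctd probes are given, as the genes measured by 2 different stretches. No exon or UTR was assigned to any probe, since no annotation of mm9 was used here.
Umps, brighter probe: tactgtaatgagcagcccttttgaaagctt
Umps, dimmer probe: tacccaagaaaatggttttgtcactggaga
Dctd, brighter probe: gttcctagaggagacagtctatcactcccc
Dctd, dimmer probe: aaataagctggatactaaatatccttatgt

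**Figure D3:**
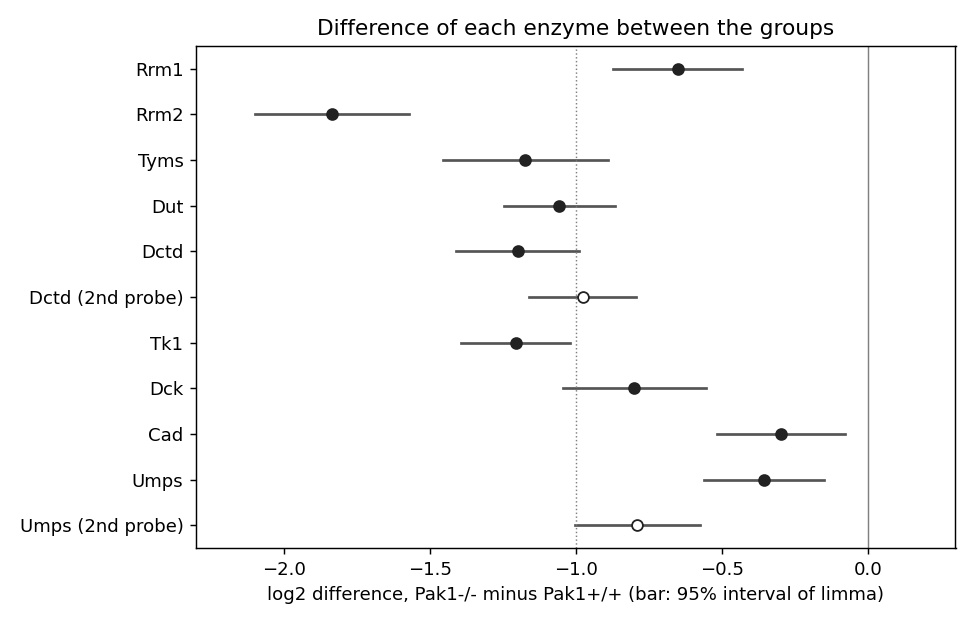
Log2 difference, Pak1-/- minus Pak1+/+ (horizontal axis), of each of the 11 probes, with the 95% interval of limma as a bar, filled points for the value of a gene, open points for a dimmer second probe and a dotted line at a 2-fold fall. Every interval lies below 0, that of Cad reaches -0.08, and the intervals of the Umps probes do not overlap.

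All 11 probes were well above background on the 4 arrays and none was saturated. Between arrays of the same group the 9 enzymes differed by a median of 0.07 (Pak1-/-) and 0.12 (Pak1+/+) on the log2 scale, against 0.11 and 0.08 for all probes. Arrays correlated at r = 0.997 across probes within either group and at 0.954 to 0.959 between groups, with probes not being independent. The Pak1 probe itself read 12.21 and 12.25 in the arrays labelled Pak1-/- and 12.04 in both arrays labelled Pak1+/+ (adjusted p = 0.070). It did not show the loss, whether it lies in the deleted part was not tested, and every direction here follows the labels. Both Pak1-/- arrays occupied the first positions of the slide and both Pak1+/+ arrays the last, so position and genotype cannot be told apart.

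**Figure D4:**
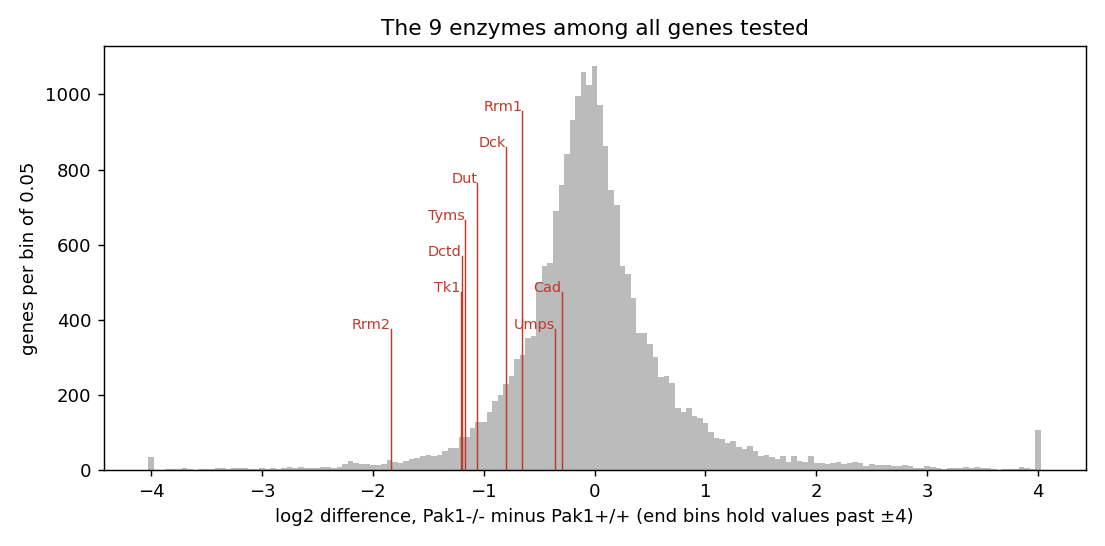
Number of genes (vertical axis) per bin of log2 difference, Pak1-/- minus Pak1+/+ (horizontal axis, the end bins holding values beyond the range), over the 21957 genes tested, with the 9 enzymes as red lines whose height carries no meaning. Rrm2 lies in the lower tail with 1.58% of genes below it, while 25.3% and 29.0% of genes lie below Umps and Cad.

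Bulk RNA cannot tell fewer cells of a kind from less RNA per cell, and a smaller share of cycling cells would be read the same way as lower expression in each cell. Of 15 cycling cell markers 14 were tested, 12 were lower in Pak1-/- and none higher, where 28.3% and 22.8% of all genes were, with a median log2 difference of -0.87. Mki67, a protein of dividing nuclei, differed by -0.96 and the replication clamp Pcna by -0.87. The helicase subunits Mcm2 and Mcm3 differed by -1.11 and -1.14 (-0.35 on a dimmer Mcm3 probe, adjusted p = 0.019). The mitotic kinase Cdk1 differed by -1.08 (-0.71 on a dimmer probe, adjusted p = 0.013). Ccnb1 passed on its brightest probe (adjusted p = 0.022) but not on its others (adjusted p = 0.054 and 0.11). Over the brightest probes of the tested markers the differences ran from -1.14 to -0.04, and Ccne1 and E2f1 did not pass (adjusted p = 0.66 and 0.27), though a dimmer Ccne1 probe was lower by a log2 difference of -0.60 (adjusted p = 0.0029), while Ccne2 was not above background on any array. Their part in the lower levels of the 9 enzymes was not tested.

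The 5 epithelial markers were well above background on every array, with Krt8 between 18.09 and 18.69 on its brightest probe and Cdh1 between 11.57 and 12.91. Krt8, Krt18 and Cdh1 were higher in Pak1-/-, Erbb2 lower and Epcam not past the threshold. The Erbb2 probe is placed on the mouse gene, and whether it reads the Neu transgene was not tested. Of the 4 leukocyte markers Ptprc was lower in Pak1-/-, at 7.14 to 7.60, while Cd68, Itgam and Cd3e did not pass. Itgam read 15.20 to 16.07 on one probe and 7.35 to 8.23 on its others, and Cd3e 11.34 to 11.70. Of the 5 fibroblast markers Col1a1 was higher in Pak1-/-, at 9.31 and 8.88 against 8.03 and 7.93, Col1a2 and Pdgfra did not pass, and Col3a1 and Pdgfrb were at background on every array. None of the 3 endothelial markers passed by the brightest probe, but a dimmer Kdr probe read 8.05 and 7.92 in the Pak1-/- arrays and 6.61 and 6.63 in the Pak1+/+ arrays, where it was not well above background. The part of other cell types in the differences of the 9 enzymes was not tested.

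The wider list of nucleotide metabolism held 61 further genes, of which 59 were tested. In Pak1-/- 38 were lower, 8 were higher and 13 did not pass, with a median log2 difference of -0.55 against -0.05 for all genes. Set against the 28.3% of all genes called lower and the 22.8% called higher, the lower calls were more frequent in the list and the higher calls less frequent, a contrast that was not tested. The same shares of all genes stand behind each count by role that follows. The median was lowest in the folate cycle and highest among breakdown enzymes.

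The folate cycle hands the methyl group to thymidylate and carbon units to purines. Of its 7 genes listed here 6 were lower, none was higher (28.3% and 22.8% of all genes), and the median difference was -1.35. Mthfd1l, Mthfd1 and Aldh1l1, which interconvert carbon-carrying folates, differed by -1.67, -1.46 and -1.35. Shmt1, a serine hydroxymethyltransferase, differed by -1.57 on its brighter probe and -0.73 on its dimmer one.

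Purine synthesis was lower in 11 of 13 genes and higher in none, against 28.3% and 22.8% of all genes, with a median of -0.73. Adssl1, an adenylosuccinate synthase isozyme known from muscle, differed by -1.87 and Pfas, an enzyme of the ring-building steps, by -1.09. All 3 purine salvage genes were lower (28.3% of all genes), among them Adk at -0.87 and Hprt at -0.80. Of the 5 nucleoside transporters 4 were tested and 3 were lower (28.3% of all genes), among them Slc29a2 at -1.66 and Slc28a3 at -1.60.

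**Figure D5:**
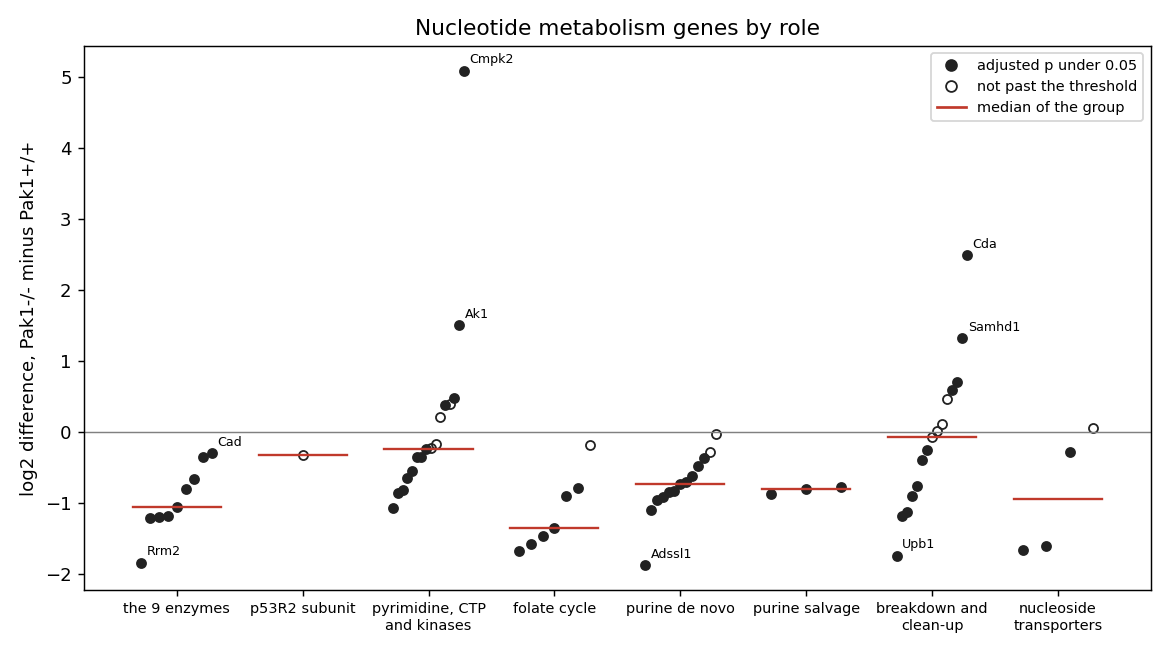
Log2 difference, Pak1-/- minus Pak1+/+ (vertical axis), of the 9 enzymes and of 59 further nucleotide metabolism genes grouped by role, 1 point per gene, filled where the adjusted p of limma was under 0.05, with a red line at the median of each group. No gene of the folate cycle or of purine synthesis and salvage was called higher, while Cmpk2, Cda, Ak1 and Samhd1 stood above 1.

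Other pyrimidine enzymes and nucleotide kinases were mixed, with 8 of 16 lower, 4 higher and a median of -0.23, the higher calls also near the 22.8% of all genes. Dtymk, the thymidylate kinase that acts after Tyms and Tk1, read 13.92 and 13.94 against 15.02 and 14.97 (difference -1.07, adjusted p = 0.00058). Dhodh, the mitochondrial step between Cad and Umps, read 11.26 and 11.34 against 12.08 and 12.15 (difference -0.81, adjusted p = 0.0015). Dhodh thus differed more than either neighbour's brightest probe, but the dimmer Umps probe, at -0.79, was close to it. These contrasts were not tested.

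In the opposite direction, 7% of all genes were called at least 2-fold higher, and 4 of the 59 wider genes were. Cmpk2, a mitochondrial UMP-CMP kinase known as an interferon-induced gene, read 12.03 and 12.10 in the Pak1-/- arrays and 6.95 and 7.0 in the Pak1+/+ arrays, where it was well above background on 1 of 2 arrays. It thus entered the test through the Pak1-/- arrays, and its difference of 5.09 moved with the setting. It was 5.80 without the offset, 6.15 with the processed signal and 4.53 over both of its probes, and the gene was not tested where all 4 arrays had to be above background. Cda, the cytidine deaminase, which turns cytidine and deoxycytidine into uridine forms, read 11.87 and 11.86 against 9.41 and 9.33 (difference 2.49, adjusted p = 0.00010). Samhd1, a hydrolase of deoxynucleoside triphosphates, read 14.15 and 13.79 against 12.58 and 12.71 (difference 1.32, adjusted p = 0.0022). Ak1, an adenylate kinase, differed by 1.51.

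Among breakdown and clean-up enzymes 7 of 15 tested were lower and 4 higher, with a median of -0.07, with the share of higher calls near the 22.8% of all genes. The lower ones included Upb1, the last enzyme of pyrimidine breakdown, at -1.74, Nudt1, which removes oxidised purine nucleotides, at -1.17, and Upp1, the uridine phosphorylase, at -1.12.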

How the data were processed

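RNA of 4 samples was hybridised to 1-colour Agilent mouse arrays with 60-base probes. Per the file headers, the deposited intensity values (mean signal and local background of each spot) were extracted with Feature Extraction 9.5.3.1 (9.5 in the submitters' processing notes) and are not normalized, and probe positions are on mm9. The processed intensity in the same files is background-subtracted by that program. The authors also deposited a log2 table, background corrected and quantile normalized, which was used as an alternative.

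Here the signals were corrected by normexp (offset 50, chosen here), quantile normalized and fitted by genotype with limma 3.58.1 in R 4.3.3 (lmFit, eBayes, two-sided), with Benjamini-Hochberg adjustment over all 27215 probes that were well above background on at least 2 of 4 arrays. Control spots and spots flagged as outliers were left out, with any probe thereby missing on an array. Spots of 1 probe were averaged. A gene takes its probe of highest mean intensity. Calls have an adjusted p under 0.05. The number of arrays limits the precision. Differences of 2 probes on 1 array were tested by exact permutation.

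The 9 enzymes, the wider list and the markers were chosen with earlier results of these data known, and some genes of these lists are not reported here. From the wider list the text names, per role, genes changed at least 2-fold or otherwise the 2 most changed, and Rrm2b, Tk2, Dguok, Dtymk, Samhd1 and Dhodh always. The fit was tested on simulated data. Motifs were searched in RefSeq windows of GRCm38.p6. Alternatives covered the offset, the scaling, the deposited table, the filter, the variance prior, the replicate block, each array left out, the choice of probe and the threshold.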

Additional observations from a re-analysis of the deposited data

How the results depend on the processing

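The alternatives were run for the 9 enzymes and the genes named by rule from the wider list, and not for markers, Pak1 or second probes. None of these genes changed direction, and of 495 combinations of a gene and an alternative 455 kept their side of the threshold, 35 lost the call and 5 gained one. Most of the wider genes were named because the main fit called them at least 2-fold changed, so that tally was partly set in advance. For a gene with a single tested probe, the mean over its probes repeats the main fit. Rrm1, Rrm2, Tyms, Dut, Dctd, Tk1 and Dck were called lower under every alternative apart from the 2-fold rule, which by its construction left 5 of the 9 enzymes (without Rrm1, Dck, Cad and Umps). It also left 12 lower and 4 higher genes of the wider list and 3413 probes of the array, and an adjusted p under 0.01 left 8900 probes. The median log2 difference of the 9 enzymes was -1.13 with the processed signal scaled to the 75th percentile and -0.97 with cyclic loess, which moved the share of higher calls from 44.9% to 52.4%; the cause was not tested. Leaving out each array in turn gave 7 to 8 enzymes lower, 32 to 34 wider genes lower, 7 to 8 higher and 10296 to 12179 probes called, with medians of -1.09 to -1.02; the lone array left in a group was assumed to vary like the other group. The labels do not say that replicate numbers pair the samples, and deviations of equal numbers did not correlate (r = -0.03 across probes). With the replicate block 13202 probes, 9 enzymes, 35 lower and 7 higher wider genes were called. With 2 arrays per group, small differences such as those of Cad, Rrm2b and Tk2 sit near the threshold, and the call of the brighter Umps probe depends on the setting.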
